A study of Homo sapiens and Mus musculus with 16 samples.

Results

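The translesion DNA polymerases are the enzymes that copy past damaged bases when the replicative polymerases stall. 7 genes were taken by symbol, POLK, POLH, POLI, REV1, REV3L, MAD2L2 and POLQ, and all 7 were present among the 22286 genes of the human count table and, under the mouse spelling, among the 15881 genes of the mouse table. The question asked of them was how abundant their mRNAs were in P-bodies, which are condensates that hold repressed transcripts, relative to a cytoplasm fraction. P-bodies were sorted as fluorescent LSM14A particles, and an aliquot of the presorted lysate pellet, cleared of nuclei, served as the cytoplasm. The P-bodies were sorted from that pellet, so the cytoplasm fraction still held P-bodies and lacked the supernatant. The ratios below therefore do not give the share of an mRNA held in P-bodies. There were 16 libraries from 4 cell types, 2 of either fraction per cell type.

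The HEK293T line derives from human embryonic kidney. The liver bud progenitors and the day-20 neurons were derived from UCLA4, a human embryonic stem cell line, and the mouse cells (mESC) were embryonic stem cells of the KH2 line kept in serum with LIF. All cells of both fractions carried GFP-LSM14A, delivered to HEK293T and mESC by a lentivirus with the EF1a promoter and to UCLA4 by insertion at the AAVS1 locus, so no library came from cells without the tagged protein. HEK293T and mESC were labelled total RNA, and the UCLA4 derivatives polyA RNA. RNA type and cell type therefore cannot be told apart where HEK293T or mESC is set beside the other cells. In libraries of bulk RNA, fewer cells of a type and less RNA per cell cannot be told apart either.

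Total counts ranged from 6368953 to 17972284 per library, and the 7 genes had between 86 and 12003 counts in each library, far above the 3 counts taken as the limit of detection (0.167 to 0.471 CPM, counts scaled to library size). Ribosomal RNA took 3.09 to 13.4% of counts in P-body libraries and 9.63 to 24.9% in cytoplasm libraries, and its part in the results was not tested. The 2 neuron P-body libraries differed from each other more than other pairs did (a chi-square per gene of 24.8, against 2.14 to 6.69). The neuron results are therefore also given below without replicate 1 or 2 of them. Such a refit leaves 1 library in that group, so the spread of the pair no longer enters its tests. All 10 liver bud markers exceeded 1 CPM in the liver bud progenitors, with none at 0, yet their summed level of 236 to 509 CPM lay below the 1393 to 1633 CPM of 10 pluripotency markers. The 10 neuron markers summed to 10121 to 11836 CPM in neuron libraries, and all 10 pluripotency markers exceeded 1 CPM in mESC; no marker list was set for HEK293T.

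Translesion synthesis is a relay. Polymerases of the Y family (POLK, POLH, POLI and REV1) have open active sites that accept damaged templates, and each is known for particular lesions. Polymerase zeta, whose catalytic subunit is REV3L and whose accessory subunit is MAD2L2 (also called REV7), extends the primer beyond the lesion. POLQ, polymerase theta, belongs to the A family and is best known for joining broken ends at short homologies, although it can also bypass lesions. Recruitment is governed by ubiquitin on the sliding clamp PCNA, placed by RAD18 and removed by USP1.

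The members differed in the base composition of their coding sequences, which is shown because genes with a lower GC content at the third codon position (GC3) had higher P-body enrichment across expressed genes. From GENCODE annotation (release 44 for hg38 and M21 for mm10), 90 bases from the middle of the coding sequence are printed 5′ to 3′ on the coding strand for a member that was enriched everywhere (POLK), one enriched in mouse cells only among these tests (POLH) and one enriched in no cell type (MAD2L2). Capitals mark a G or C at the third position of a codon, and each stretch holds 30 codons. A stretch need not match the GC3 of its whole coding sequence, which in mouse was 43.0% for Polk and 47.55% for Polh. POLK lies on the plus strand at chr5:75511845-75609991 (hg38), POLH on the plus strand at chr6:43576185-43620523 and MAD2L2 on the minus strand at chr1:11658918-11691811. In mm10, Polk lies on the minus strand at chr13:96480690-96542579, Polh on the minus strand at chr17:46171355-46202645 and Mad2l2 on the plus strand at chr4:148130384-148145699.
POLK, coding bases 1261 to 1350 of 2610, 10 codons ending in G or C: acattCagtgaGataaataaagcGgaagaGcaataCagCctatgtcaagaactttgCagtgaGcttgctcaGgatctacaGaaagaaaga
POLH, coding bases 1024 to 1113 of 2139, 15 codons ending in G or C: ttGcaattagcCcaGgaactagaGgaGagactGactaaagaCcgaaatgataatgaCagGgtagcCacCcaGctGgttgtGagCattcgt
MAD2L2, coding bases 271 to 360 of 633, 22 codons ending in G or C: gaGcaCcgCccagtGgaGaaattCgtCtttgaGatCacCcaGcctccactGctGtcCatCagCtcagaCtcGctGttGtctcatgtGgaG
Polk, coding bases 1234 to 1323 of 2556, 17 codons ending in G or C: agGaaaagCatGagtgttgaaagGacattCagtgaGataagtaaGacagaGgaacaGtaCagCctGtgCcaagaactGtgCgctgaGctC
Polh, coding bases 997 to 1086 of 2082, 17 codons ending in G or C: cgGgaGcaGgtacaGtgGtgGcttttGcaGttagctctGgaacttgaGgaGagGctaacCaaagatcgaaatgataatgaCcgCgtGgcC
Mad2l2, coding bases 271 to 360 of 633, 20 codons ending in G or C: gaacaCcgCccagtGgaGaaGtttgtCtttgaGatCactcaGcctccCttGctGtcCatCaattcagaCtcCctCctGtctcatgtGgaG

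Across the 28 comparisons of P-body with cytoplasm (7 genes in 4 cell types), 19 were enriched in P-bodies, 2 were depleted and 7 did not pass the test (edgeR's quasi-likelihood test, Benjamini-Hochberg adjusted p under 0.05 over all genes). POLK, REV1 and REV3L were enriched in all 4 cell types, POLI and POLQ in 3, and POLH in mESC only among the 4 tests. MAD2L2 was enriched in none and depleted in 2, HEK293T and mESC. Of all 12616 genes tested under the same symbol in the 4 fits, 10.2% were enriched in all 4 cell types, and of the 6461 averaging 5 CPM or more in each cell type, 19.4% were.

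In HEK293T, 4 of the 7 members were enriched and 1 was depleted, beside 19.3% and 22.8% of all genes tested and 39.1% and 40.4% of those averaging 5 CPM or more. In liver bud progenitors, 5 were enriched and 0 depleted, beside 21.4% and 17.1% of all genes, or 41.8% and 27.0% at 5 CPM or more. In neurons, 4 were enriched and 0 depleted, beside 14.6% and 14.1%, or 23.4% and 28.9%. In mESC, 6 were enriched and 1 depleted, beside 25.8% and 20.6%, or 42.7% and 23.1%. The members' median log2 change was 0.60, 0.70, 0.62 and 1.00 in that order, and the median over all genes was −0.01, −0.09, 0.19 and −0.11. The ranges of the 2 fractions did not overlap for 6, 5, 4 and 7 of the 7 members, where 64.8%, 64.1%, 65.0% and 73.0% of all genes tested likewise showed no overlap.

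**Figure D1:**
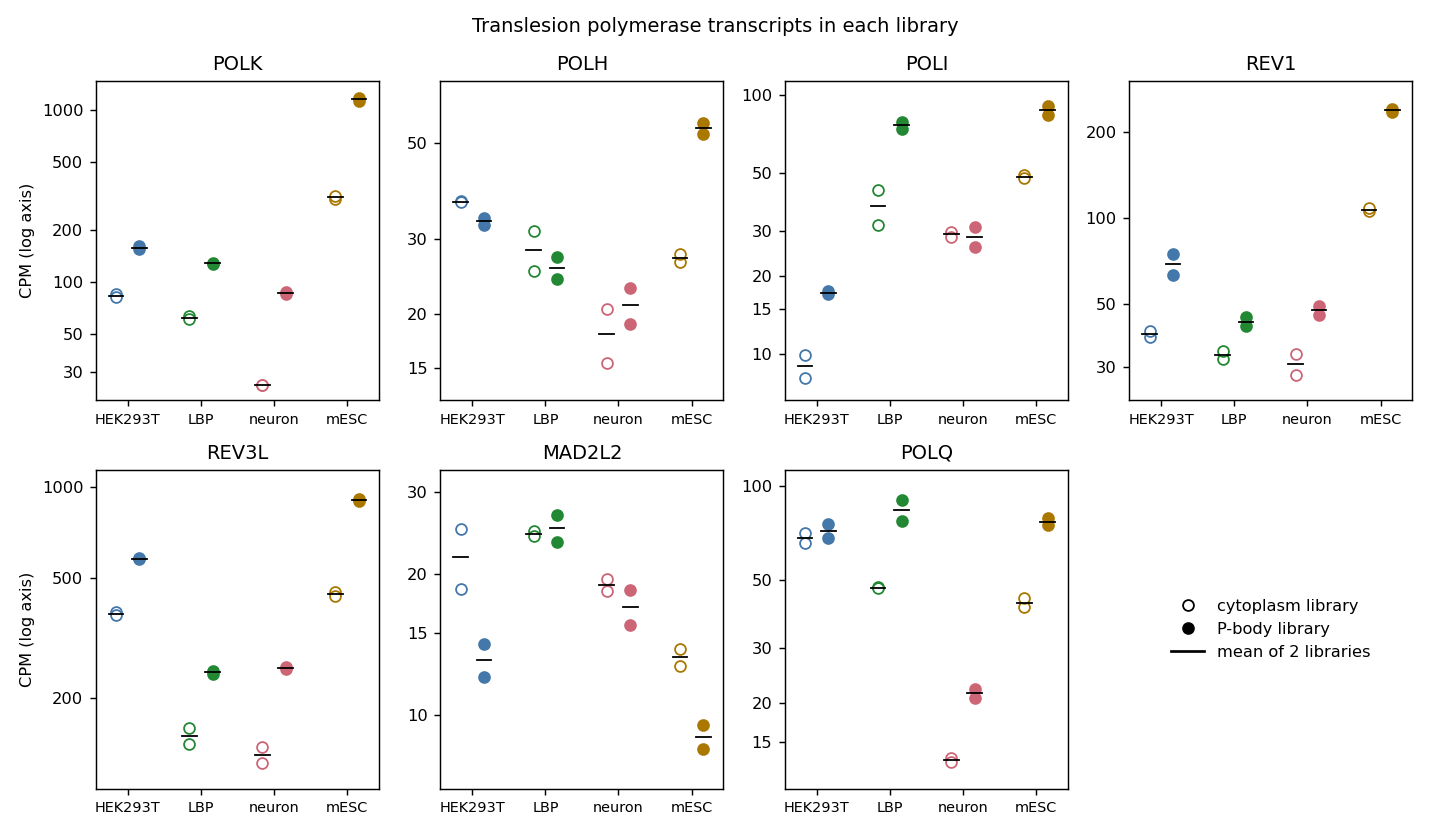
CPM (log axis, a separate range per gene) of each of the 7 genes in the 16 libraries, with open circles for cytoplasm, filled circles for P-body and a line at the mean of 2 libraries; LBP stands for liver bud progenitor. Filled points lie above open points for POLK, REV1 and REV3L in every cell type, while for MAD2L2 they lie below in HEK293T and mESC.

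POLK, polymerase kappa, is known for bypassing bulky adducts in the minor groove of DNA. It was one of the transcripts the study followed by imaging in HEK293T, so its enrichment in those cells was already known. In HEK293T its 2 P-body libraries held 155 and 161 CPM and its cytoplasm libraries 84.4 and 81.5 CPM. In liver bud progenitors the values were 129 and 127 CPM in P-bodies and 63.1 and 60.7 CPM in cytoplasm. In neurons they were 84.5 and 87.2 CPM against 25.0 and 25.0 CPM. P-body libraries were thus the higher ones in each human cell type, with the lowest cytoplasm level in neurons. In mESC the gene was more abundant, with 1180 and 1135 CPM in P-bodies and 305 and 314 CPM in cytoplasm. The fold enrichment was 1.91 in HEK293T (95% interval of the log2 change 0.79 to 1.07, adjusted p = 1.35e-17), 2.07 in liver bud progenitors (0.88 to 1.22, adjusted p = 1.07e-17), 3.43 in neurons (1.46 to 2.097, adjusted p = 1.22e-06) and 3.74 in mESC (1.82 to 1.98, adjusted p = 4.99e-21). Among mouse genes averaging 5 CPM or more, 99.4% had a lower log2 change than Polk, against 86.6%, 87.7% and 94.9% for POLK in HEK293T, liver bud progenitors and neurons. Without neuron P-body replicate 1 or 2, the neuron log2 change was 1.80 or 1.76.

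POLH, polymerase eta, copies past ultraviolet-induced thymine dimers and is the gene mutated in the variant form of xeroderma pigmentosum. In HEK293T its levels were 32.2 and 33.5 CPM in P-bodies and 36.6 and 36.5 CPM in cytoplasm. In liver bud progenitors they were 24.2 and 27.1 CPM against 31.2 and 25.2 CPM, and in neurons 23.1 and 19.0 CPM against 15.4 and 20.6 CPM. The fractions overlapped in the latter 2 cell types, and none of the human log2 changes passed the test (−0.15, −0.13 and 0.22, adjusted p = 0.324, 0.551 and 0.531), and the neuron value was 0.08 or 0.36 without P-body replicate 1 or 2. Their 95% intervals ran from −0.38 to 0.07, −0.41 to 0.16 and −0.31 to 0.76, so the neuron data leave room for an enrichment that the HEK293T data do not. Mouse Polh, in contrast, held 55.9 and 52.6 CPM in P-bodies and 26.5 and 27.7 CPM in cytoplasm. It rose 2.01-fold (log2 change 1.00 ± 0.10 SE, adjusted p = 5.00e-09). With library size as the only scaling, POLH in HEK293T was depleted (−0.28, adjusted p = 0.037). The species are in separate tables, and the difference between them was not tested.

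POLI, polymerase iota, is a Y-family enzyme with very low fidelity opposite template T. HEK293T had the lowest levels, with 17.5 and 17.1 CPM in P-bodies and 8.11 and 9.96 CPM in cytoplasm. Liver bud progenitors held 74.1 and 78.5 CPM in P-bodies and 43.2 and 31.5 CPM in cytoplasm. Enrichment was 1.91-fold in the former (log2 change 0.94 ± 0.17 SE, adjusted p = 3.95e-06) and 2.06-fold in the latter (1.04 ± 0.11, adjusted p = 4.91e-13). Neurons stood apart: the P-body libraries, at 30.9 and 25.9 CPM, lay on both sides of the cytoplasm libraries at 29.7 and 28.3 CPM. The neuron log2 change was −0.03 (95% interval −0.46 to 0.40, adjusted p = 0.925), and −0.16 or 0.09 without P-body replicate 1 or 2. Mouse Poli, at 90.6 and 84.0 CPM in P-bodies and 49.0 and 47.9 CPM in cytoplasm, was enriched 1.80-fold (0.85 ± 0.08, adjusted p = 1.40e-09).

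REV1 inserts dCMP opposite lesions and acts as the scaffold on which the other Y-family enzymes and polymerase zeta assemble. Its HEK293T levels were 74.7 and 62.9 CPM in P-bodies and 38.2 and 40.2 CPM in cytoplasm. Liver bud progenitors held 41.6 and 44.7 CPM against 32.1 and 34.2 CPM, and neurons 49.1 and 45.5 CPM against 33.3 and 28.0 CPM. P-body libraries were higher in each case, although by less in the liver bud progenitors. The log2 change was 0.81 ± 0.10 SE in HEK293T (adjusted p = 1.67e-10), 0.38 ± 0.12 in liver bud progenitors (adjusted p = 0.0062) and 0.62 ± 0.17 in neurons (adjusted p = 0.0157), the last being 0.57 or 0.68 without P-body replicate 1 or 2. Mouse Rev1, at 240 and 235 CPM in P-bodies and 106 and 108 CPM in cytoplasm, was enriched 2.23-fold (1.16 ± 0.05, adjusted p = 2.84e-15).

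Limits on REV1 were that the liver bud progenitor call was lost with DESeq2 (adjusted p = 0.0903), in a fit of all 12 human libraries (0.0553), with library size as the only scaling (0.204) and without P-body replicate 2 (adjusted p = 0.088), and the neuron call without cytoplasm replicate 1 or 2 (adjusted p = 0.0519 and 0.23). REV1 exons also share 852 bases (1643 in mouse) with those of EIF5B, a translation initiation factor on the opposite strand. EIF5B was far more abundant, at 1508 CPM in P-bodies and 585 CPM in cytoplasm of HEK293T. EIF5B was itself enriched, with log2 changes of 1.37, 1.14, 2.34 and 0.84 (HEK293T, liver bud progenitor, neuron and mESC). The sources do not give the strand setting of the counting, so reads of the shared bases cannot be assigned with certainty. Exon overlaps with other opposite-strand genes were shorter for POLK (144 bases with CERT1), POLH (261 bases with GTPBP2) and REV3L (117 bases with TRAF3IP2-AS1). GTPBP2 was at 24.2 CPM in P-bodies and 28.6 CPM in cytoplasm of HEK293T. Its log2 changes in HEK293T, liver bud progenitors and neurons were −0.24, −0.42 and −0.26 (adjusted p = 0.137, 0.0307 and 0.384). The part of its reads in the POLH counts was not tested.

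**Figure D2:**
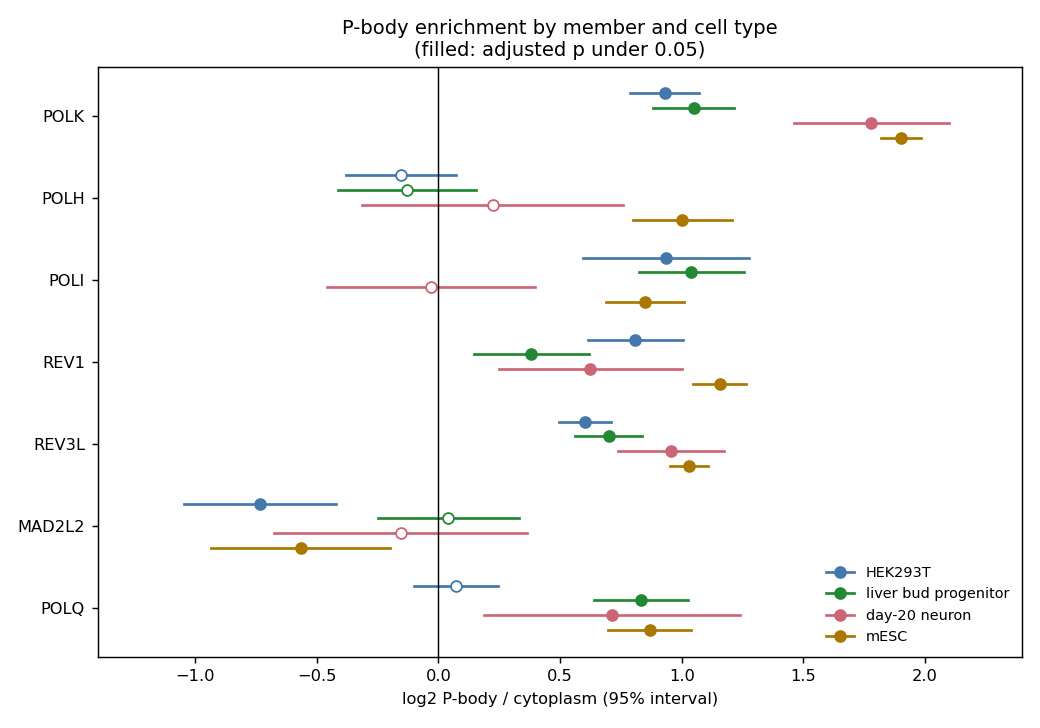
The log2 ratio of P-body to cytoplasm for each gene (rows) and cell type (colours), with 95% intervals from edgeR and filled points where the adjusted p was under 0.05. POLK in neurons and mESC lies farthest to the right, at 1.78 and 1.90, and MAD2L2 in HEK293T farthest to the left, at −0.73.

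The subunits of polymerase zeta differed in their fractions. REV3L, the catalytic subunit, held 582 and 579 CPM in HEK293T P-bodies and 387 and 377 CPM in cytoplasm. Liver bud progenitors had 241 and 247 CPM in P-bodies and 160 and 141 CPM in cytoplasm, and neurons 255 and 250 CPM against 122 and 138 CPM. In mESC, Rev3l had 916 and 901 CPM against 451 and 439 CPM. P-body libraries were the higher ones in all 4 cell types, and the log2 changes of 0.60 ± 0.05 SE, 0.70 ± 0.07, 0.95 ± 0.10 and 1.03 ± 0.04 (HEK293T, liver bud progenitor, neuron and mESC) all passed the test, with adjusted p-values of 4.06e-15, 1.14e-13, 9.98e-06 and 4.43e-17. Without neuron P-body replicate 1 or 2 the neuron value was 0.94 or 0.97. Of the 7 members, REV3L had the narrowest range of log2 change over cell types, 0.43, where POLH had the widest, 1.16.

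MAD2L2, the accessory subunit, is shared by polymerase zeta and the shieldin complex, which guards broken ends from resection. In HEK293T it was at 14.2 and 12.1 CPM in P-bodies and 18.6 and 25.0 CPM in cytoplasm, and in mESC at 8.46 and 9.49 CPM against 13.8 and 12.7 CPM. Both P-body libraries lay below both cytoplasm libraries in these cells, and the gene fell by 0.73 on the log2 scale in HEK293T (95% interval −1.05 to −0.42, adjusted p = 6.45e-05) and by 0.57 in mESC (−0.93 to −0.20, adjusted p = 0.0115). The mESC call was lost with DESeq2 (adjusted p = 0.0983), without P-body replicate 1 (adjusted p = 0.116) and without cytoplasm replicate 1 (adjusted p = 0.057). The fractions overlapped in liver bud progenitors (23.4 and 26.8 CPM in P-bodies, 24.7 and 24.2 CPM in cytoplasm) and in neurons (15.6 and 18.5 CPM against 19.5 and 18.4 CPM). Their log2 changes of 0.04 (95% interval −0.25 to 0.33) and −0.16 (−0.68 to 0.37) did not pass the test, and the neuron value was −0.04 or −0.29 without P-body replicate 1 or 2. Human MAD2L2 shares 876 exon bases with FBXO6 on the opposite strand, whose level stayed between 0 and 1.70 CPM, and 60 with DRAXIN, at 98.7 CPM in P-bodies and 176 CPM in cytoplasm of neurons.

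Ratios of 2 members within a library need no scaling between libraries, and gene length cancels when the ratio is compared between fractions. The ratio of REV3L to MAD2L2 counts was 40.9 and 47.8 in HEK293T P-bodies and 20.8 and 15.0 in cytoplasm. In liver bud progenitors it was 10.3 and 9.21 against 6.45 and 5.83, in neurons 16.3 and 13.5 against 6.25 and 7.499, and in mESC 108 and 94.4 against 32.5 and 34.3. P-body ratios exceeded cytoplasm ratios in 4 of 4 cell types without overlap, by a mean of 1.17 on the log2 scale (2.26-fold; exact two-sided permutation test within cell types, p = 0.0015, which is the smallest of its 1296 arrangements, adjusted p = 0.0023 over the 3 ratios tested). Among single genes, 64.1 to 73.0% showed no overlap within a cell type. How often other pairs of genes separate in this way was not counted for any of the ratios.

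The ratio of POLK to POLH, a pair within the Y family, rose likewise. It was 4.80 and 4.80 in HEK293T P-bodies against 2.30 and 2.23 in cytoplasm, and 3.66 and 4.58 against 1.62 and 1.21 in neurons. The mean difference over 4 cell types was 1.18 on the log2 scale (2.26-fold, exact permutation p = 0.0015, adjusted p = 0.0023), with no overlap in any cell type. Both this ratio and that of REV3L to MAD2L2 use the same counts as the changes of the single genes above and largely restate them. The genes were chosen with earlier results of these data known, and the adjustment does not correct for that choice. The ratio of POLI to POLH gave a mean difference of 0.46 with an exact permutation p of 0.0556, which did not pass, and its direction was not shared. It was higher in P-bodies of HEK293T (2.13-fold) and liver bud progenitors (2.26-fold), where in neurons and mESC the log2 difference was −0.27 and −0.15.

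POLQ was enriched in 3 cell types and did not pass the test in HEK293T, where it held 67.9 and 75.6 CPM in P-bodies and 70.9 and 65.5 CPM in cytoplasm, with overlap and a log2 change of 0.07 (95% interval −0.10 to 0.25, adjusted p = 0.562). Liver bud progenitors had 77.2 and 90.4 CPM against 47.1 and 47.1 CPM, a 1.78-fold enrichment (0.83 ± 0.10 SE, adjusted p = 3.07e-11). Neurons had 20.7 and 22.3 CPM against 13.3 and 12.9 CPM, a 1.64-fold enrichment near the threshold (0.71 ± 0.24, adjusted p = 0.0427). Without neuron P-body replicate 1 or 2 the change was 0.76 or 0.66. That neuron call was lost with DESeq2 (adjusted p = 0.063) and without cytoplasm replicate 1 or 2 (adjusted p = 0.277 and 0.301). Mouse Polq, with 78.7 and 74.99 CPM against 40.7 and 43.5 CPM, was enriched 1.83-fold (0.87 ± 0.08, adjusted p = 2.57e-09).

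Differences in P-body enrichment between the human cell types were then tested as an interaction of fraction and cell type. Of all genes tested, 9.21% passed as more enriched in neurons than in liver bud progenitors and 8.50% as less. These shares, and those of the later comparisons between cell types, include genes with few counts. Shares among genes averaging 5 CPM or more were not counted for these comparisons. The median difference was 0.23 over all genes and also 0.23 over the 7 members. 2 of the 7 members passed, in opposite directions. POLK was more enriched in neurons by 0.72 on the log2 scale (95% interval 0.41 to 1.04, adjusted p = 0.0030), and POLI was less enriched by 1.07 (−1.57 to −0.58, adjusted p = 0.0044). The POLK difference was 0.65 or 0.58 without neuron P-body replicate 1 or 2, and that of POLI −1.30 or −1.07. Without the same libraries 0 of the 5 others passed. The 5 others had differences between −0.20 and 0.35, with intervals as wide as −0.27 to 0.97 for POLH. REV3L passed as more enriched in neurons with library size as the only scaling (0.61, adjusted p = 0.00598) and with edgeR's filterByExpr (0.39, adjusted p = 0.0379).

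Neurons were also set against HEK293T, a comparison that shares the neuron libraries with the first and in which RNA type cannot be told apart from cell type. POLK was more enriched in neurons by 0.71 (0.40 to 1.019, adjusted p = 0.0038) and POLI less by 1.11 (−1.69 to −0.52, adjusted p = 0.0136). In those directions 6.35% and 6.19% of genes passed, and the median difference over all genes was 0.16. Without neuron P-body replicate 1 or 2 the POLK difference was 0.74 or 0.68, that of POLI −1.23 or −0.99 and that of POLQ 0.55 or 0.44. The POLK call was lost without HEK293T P-body replicate 1 (adjusted p = 0.0606), and the POLI call without any of 4 libraries in turn, HEK293T P-body replicate 1 or 2, HEK293T cytoplasm replicate 1 or neuron cytoplasm replicate 1 (adjusted p = 0.0547 to 0.0954), or with library size as the only scaling (adjusted p = 0.115). REV3L and POLQ passed as more enriched in neurons than in HEK293T under other processing. With library size as the only scaling the differences were 0.64 (adjusted p = 0.00143) and 0.935 (adjusted p = 0.00382). With filterByExpr they were 0.35 (adjusted p = 0.0394) and 0.64 (adjusted p = 0.0374). Between liver bud progenitors and HEK293T, 12.5% of genes were more enriched in the former and 15.0% less, with a median difference of −0.21 over all genes. POLQ was the more enriched member (0.53, 0.25 to 0.81, adjusted p = 0.0021) and REV1 the less enriched one (−0.65, −0.96 to −0.35, adjusted p = 0.00066). The POLQ call was lost without HEK293T P-body replicate 1 (adjusted p = 0.0707). MAD2L2, with a difference of 0.55 (0.11 to 0.98), missed the threshold in this fit (adjusted p = 0.0562) and passed it under 5 alternatives (adjusted p = 0.0091 to 0.0491).

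**Figure D3:**
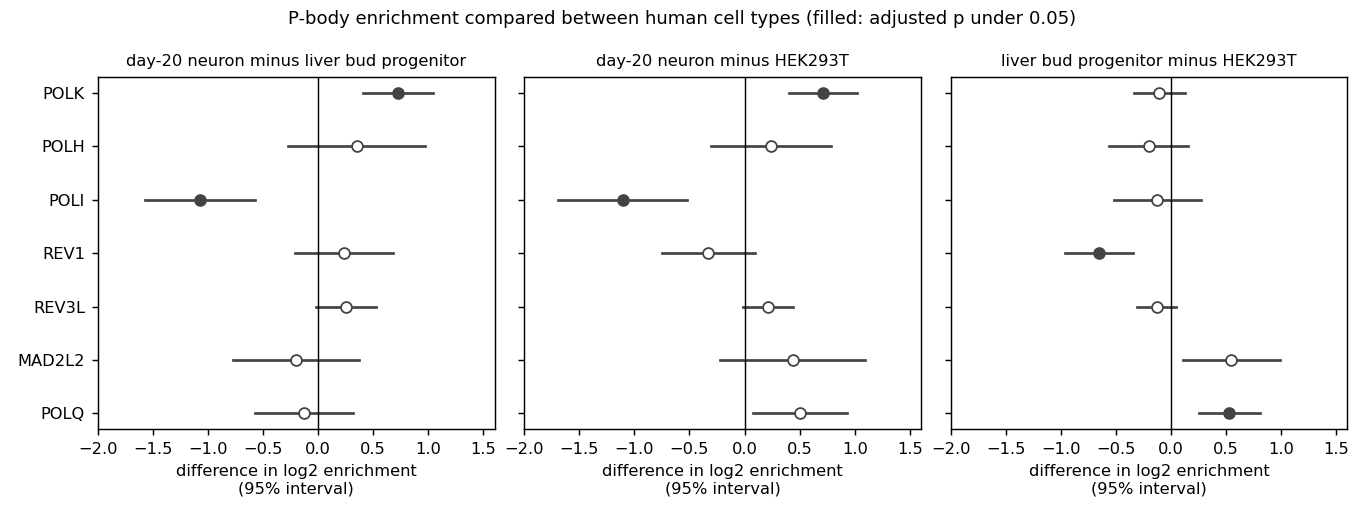
Difference in log2 P-body enrichment between pairs of human cell types for each gene, with 95% intervals and filled points where the adjusted p was under 0.05. In both panels with neurons POLK lies to the right of 0, at 0.72 and 0.71, and POLI to the left, at −1.07 and −1.11.

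An enrichment can differ because the P-body level, the cytoplasm level or both differ, so each fraction was compared between neurons and liver bud progenitors, the cell types that share RNA type and parent line. In the cytoplasm 26.0% of genes were higher in neurons and 25.8% were lower, and in P-bodies 18.4% and 22.7%. The median log2 difference over all genes was −0.16 in the cytoplasm and 0.18 in P-bodies, and over the members −0.16 and −0.53. No member was higher in neurons in either fraction, and 3 were higher in liver bud progenitors in each. POLK fell from 57.8 ± 1.44 (SD, n = 2) to 27.0 ± 0.02 CPM in the cytoplasm (log2 difference −1.10 ± 0.13 SE, adjusted p = 2.61e-11) and from 126 ± 1.67 to 86.5 ± 2.92 CPM in P-bodies (−0.54 ± 0.10, adjusted p = 0.0018). Without neuron P-body replicate 1 or 2 the latter difference was −0.51 or −0.58. POLI did not pass the test in cytoplasm (34.8 ± 7.64 and 31.3 ± 1.03 CPM, −0.15, 95% interval −0.45 to 0.14, adjusted p = 0.421), although it did with library size as the only scaling (−0.54, adjusted p = 0.0011), and fell from 75.2 ± 2.84 to 28.6 ± 3.22 CPM in P-bodies (−1.39 ± 0.15, adjusted p = 3.72e-05). That fall was −1.51 or −1.28 without neuron P-body replicate 1 or 2.

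POLQ was lower in both fractions of neurons. It fell from 43.96 ± 0.04 to 14.2 ± 0.32 CPM in cytoplasm (−1.63 ± 0.16 SE, adjusted p = 4.34e-15) and from 82.5 ± 9.01 to 21.7 ± 1.32 CPM in P-bodies (−1.93 ± 0.15, adjusted p = 4.77e-06), the latter being −1.87 or −1.99 without neuron P-body replicate 1 or 2. POLH was lower in neuron cytoplasm by a small margin (19.4 ± 3.97 against 26.3 ± 3.91 CPM, −0.44 ± 0.17, adjusted p = 0.0269), a call lost with DESeq2 (adjusted p = 0.129) and without liver bud progenitor cytoplasm replicate 1 or neuron cytoplasm replicate 1 (adjusted p = 0.365 and 0.293). Its P-body difference of −0.26 (95% interval −0.73 to 0.21) did not pass, and was −0.39 or −0.14 without neuron P-body replicate 1 or 2. REV3L did not pass the test in the cytoplasm (141 ± 12.1 and 140 ± 12.2 CPM, log2 difference 0.00, 95% interval −0.18 to 0.18) or in P-bodies (254 ± 0.72 and 240 ± 3.89 CPM, 0.08, −0.09 to 0.26), where the libraries did not overlap and the value was 0.08 without replicate 1 and without replicate 2 of the neurons. With library size as the only scaling it was lower in neuron cytoplasm (−0.38, adjusted p = 0.000383) and higher in neuron P-bodies (0.22, adjusted p = 0.0447), and with edgeR's filterByExpr it was higher in neuron P-bodies (0.27, adjusted p = 0.0116). REV1 had differences of 0.10 (−0.19 to 0.39) and 0.16 (−0.16 to 0.49, and 0.12 or 0.21 without neuron P-body replicate 1 or 2), and MAD2L2 of −0.16 (−0.49 to 0.18) and −0.53 (−1.023 to −0.03, adjusted p = 0.0853). Without neuron P-body replicate 1 or 2 the P-body difference of MAD2L2 was −0.40 or −0.67. MAD2L2 passed as lower in neuron cytoplasm with library size as the only scaling (−0.54, adjusted p = 0.0049).

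Markers of dividing cells moved between the same groups. Of 10 proliferation genes, 9 were lower in neuron cytoplasm and 6 in neuron P-bodies, and 0 were higher. Their summed level was 1574 to 1731 CPM in neuron cytoplasm, 4132 to 4150 CPM in liver bud progenitor cytoplasm, 4568 to 4915 CPM in neuron P-bodies and 4890 to 4955 CPM in liver bud progenitor P-bodies. 10 liver bud markers summed to 4.01 to 14.0 CPM over the neuron libraries, with APOA1, AFP, FGB and FOXA2 at 0 in neuron cytoplasm and SOX17 at 0 in neuron P-bodies. 8 neural progenitor markers, all above 1 CPM, summed to 796 to 836 CPM in neuron cytoplasm and 1050 to 1192 CPM in neuron P-bodies. The part of these genes' shifts in the POLK, POLI and POLQ results was not tested.

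On one scale for the 12 human libraries, the order of cytoplasm levels over cell types differed by gene. POLK fell in steps larger than the spread from HEK293T (80.5 ± 1.89 CPM, SD, n = 2) to liver bud progenitors (59.6 ± 2.72) and neurons (26.9 ± 0.38), and POLQ likewise (66.2 ± 3.53, 45.3 ± 0.90 and 14.1 ± 0.51 CPM). REV3L was highest in HEK293T (371 ± 6.57 CPM), and liver bud progenitors and neurons lay within the sum of their SDs (145 ± 15.6 and 140 ± 10.2 CPM). POLI ran in another order, with liver bud progenitors (36.0 ± 8.62 CPM) and neurons (31.1 ± 1.45 CPM) not distinguishable and HEK293T lowest (8.77 ± 1.28 CPM). For REV1 (31.8 to 38.0 CPM) and MAD2L2 (20.4 to 23.5 CPM), neighbouring cell types lay within the sum of their SDs. For POLH, HEK293T (35.5 ± 0.02 CPM) lay above liver bud progenitors (27.1 ± 4.59 CPM), which lay within the sum of the SDs of neurons (19.3 ± 3.69 CPM).

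Between genes, levels were compared per kilobase of the longest annotated transcript. REV3L was first in the cytoplasm of each human cell type, at 33.8 ± 0.60 CPM per kilobase in HEK293T, 13.2 ± 1.42 in liver bud progenitors and 12.7 ± 0.93 in neurons. POLI was last in HEK293T (1.46 ± 0.21), POLH in liver bud progenitors (3.24 ± 0.55) and POLQ in neurons (1.61 ± 0.06 CPM per kilobase). Neighbours in the order that lay within the sum of their SDs were REV1, POLQ, MAD2L2 and POLK in HEK293T, MAD2L2, REV1, POLI and POLQ in liver bud progenitors, and REV1 and MAD2L2 in neurons. In mESC cytoplasm Polk was first (73.3 ± 1.51) and Rev3l was next (41.2 ± 0.80), while Mad2l2 and Polh did not differ beyond their spread (8.65 ± 0.49 and 8.36 ± 0.26 CPM per kilobase). The order depended on the length used: the longest POLK transcript has 14623 bases, of which 11973 lie after the coding sequence. Per kilobase of coding sequence, an alternative chosen after seeing the annotation, MAD2L2 was first in liver bud progenitors and neurons (37.2 ± 1.31 and 32.2 ± 1.81 CPM per kilobase). Per kilobase of the median transcript, Rev1 was first in mESC cytoplasm (176 ± 2.48 CPM per kilobase).

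The lists that follow are read beside the shares of genes averaging 5 CPM or more, of which 39.1% were enriched and 40.4% depleted in HEK293T, 41.8% and 27.0% in liver bud progenitors, 23.4% and 28.9% in neurons, and 42.7% and 23.1% in mESC. Of 20 genes that control translesion synthesis, the enriched and depleted ones numbered 11 and 7 in HEK293T, 14 and 1 in liver bud progenitors, 12 and 2 in day-20 neurons and 14 and 1 in mESC, with medians of 0.46, 0.82, 0.95 and 0.71. 8 of the 20 were enriched in all 4 cell types, beside 10.2% of all genes and 19.4% of those averaging 5 CPM or more. They included RAD18, the ubiquitin ligase that marks PCNA (0.49 to 1.33), and 3 genes that act in removing that mark, USP1 (0.47 to 1.88), its cofactor WDR48 (0.79 to 1.31) and ATAD5 (0.95 to 1.78). The others were the ubiquitin-conjugating cofactor UBE2V2 (0.65 to 1.69), the translocase ZRANB3 (0.59 to 1.39), the primase-polymerase PRIMPOL (0.84 to 1.73) and the ligase adaptor DTL (0.72 to 2.45). PRIMPOL was the most enriched listed gene in HEK293T and liver bud progenitors, DTL in neurons and Ube2v2 in mESC. PRIMPOL was low in liver bud progenitors (11.1 ± 0.78 CPM, SD, in P-bodies and 3.39 ± 1.21 CPM in cytoplasm). In neurons it passed near the threshold (adjusted p = 0.0485). The most depleted were POLDIP2 in HEK293T (−1.45), USP7 in liver bud progenitors (−0.24), UBE2A, a partner of RAD18, in neurons (−0.92) and Rfwd3 in mESC (−0.30).

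The 12 subunits of the replicative polymerases divided within complexes. 2 were enriched and 7 depleted in HEK293T, 5 and 3 in liver bud progenitors, 3 and 3 in day-20 neurons, and 6 and 5 in mESC, with medians of −0.78, 0.43, −0.03 and 0.26. POLD1 and POLE, the catalytic subunits of polymerases delta and epsilon, were depleted in all 4 cell types, from −1.35 to −0.49 and from −1.32 to −0.43. POLD3, an accessory subunit of polymerase delta, was enriched in all 4 (0.83 to 2.23) and was the most enriched of the list in each. PRIM2, the large primase subunit, was enriched in all 4 as well (0.55 to 1.03). The most depleted gene was POLD4 in HEK293T (−1.50) and mESC (−0.68), POLE in liver bud progenitors and POLD1 in neurons. POLD4 was scarce in HEK293T, at 0.76 ± 0.18 CPM (SD) in P-bodies and 2.17 ± 0.91 CPM in cytoplasm, below the 5 CPM of the shares above. POLA1, the catalytic subunit of polymerase alpha, was named after its values were seen, since it differed from those of delta and epsilon: it was enriched in liver bud progenitors (0.38), neurons (0.79) and mESC (0.72) and did not pass in HEK293T (−0.08).

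Of 7 repair and mitochondrial polymerases, 0 were enriched and 4 depleted in HEK293T, 1 and 3 in liver bud progenitors and 0 and 2 in neurons, and in mESC 0 and 2 of the 6 that the mouse data hold. Their medians were −0.71, −0.75, −1.002 and −0.38. POLB, the base excision repair polymerase, was the enriched one in liver bud progenitors (0.85). The most depleted were POLG2, a subunit of the mitochondrial polymerase, in HEK293T (−1.46) and POLM, an end joining polymerase, in liver bud progenitors, neurons and mESC (−1.13, −1.81 and −0.75).

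Among 11 genes of shieldin and end joining, taken as partners of MAD2L2 and POLQ, 6 were enriched and 3 depleted in HEK293T, 3 and 3 in liver bud progenitors and 2 and 0 in neurons. In mESC 5 were enriched and 1 depleted of 10 measured, and the medians were 0.20, 0.21, 0.10 and 0.32. RIF1, which recruits shieldin, and CHAMP1, a binding partner of MAD2L2, were enriched in all 4 cell types (0.20 to 1.05 and 0.24 to 1.05). The most enriched were SHLD3, the shieldin subunit that binds MAD2L2, in HEK293T (1.35) and mESC (1.72), SHLD2 in liver bud progenitors (1.35) and RIF1 in neurons. PARP1 was the most depleted in HEK293T (−0.90) and mESC (−0.44), and TP53BP1 in liver bud progenitors (−0.59).

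**Figure D4:**
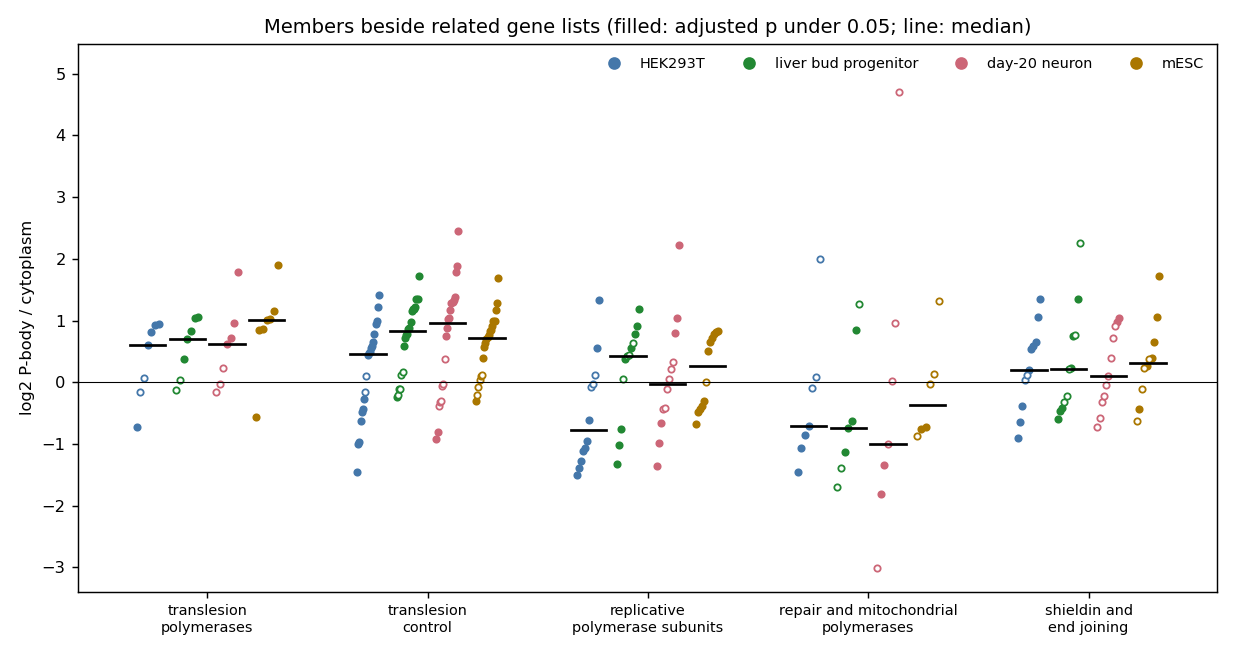
The log2 ratio of P-body to cytoplasm for every gene of each list (points, filled where the adjusted p was under 0.05) in the 4 cell types (colours), with a line at the list's median. The translesion polymerases have medians of 0.60 to 1.00, and the repair and mitochondrial polymerases of −1.002 to −0.38.

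GC3 separated MAD2L2 from the other members. It was 77.3% in MAD2L2, above 81.9% of 17534 human genes with a coding sequence, and 44.5% in POLH, 36.1% in REV1, 35.1% in POLQ, 32.0% in REV3L, 31.7% in POLK and 31.6% in POLI, where the median gene had 60.4%. The mouse values were 71.6% in Mad2l2 and 37.0 to 49.3% in the other 6, with a median of 59.8%. Those 6 mouse genes each had a higher GC3 than their human counterparts, with the widest gap for Poli (49.3%). Across genes averaging 1 CPM or more, Spearman's rho between GC3 and the log2 change was −0.51, −0.57, −0.49 and −0.52 in HEK293T, liver bud progenitors, neurons and mESC (11549 to 13151 genes, which share libraries and are not independent). Over the 7 members rho was −0.89, −0.89, −0.46 and −0.82, as a description of 7 points. GC content after the coding sequence gave rho of −0.51, −0.56, −0.49 and −0.50 over genes and −0.57, −0.32, −0.43 and −0.75 over the members.

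Genes were divided into 10 equal bins by GC3, and each member was set beside its bin. 20 of the 28 values lay between the quartiles of the bin, 4 above and 4 below. POLK lay above in neurons (1.78 beside a median of 0.89) and in mESC (1.90 beside 0.69), and MAD2L2 lay above in liver bud progenitors and neurons (0.04 beside −0.49, and −0.16 beside −0.71). The values below were POLI in neurons (−0.03 beside 0.89), POLQ in HEK293T (0.07 beside 0.60), POLH in liver bud progenitors (−0.13 beside 0.54) and Mad2l2 in mESC (−0.57 beside −0.28). REV1 and REV3L lay between the quartiles in all 4 cell types.

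**Figure D5:**
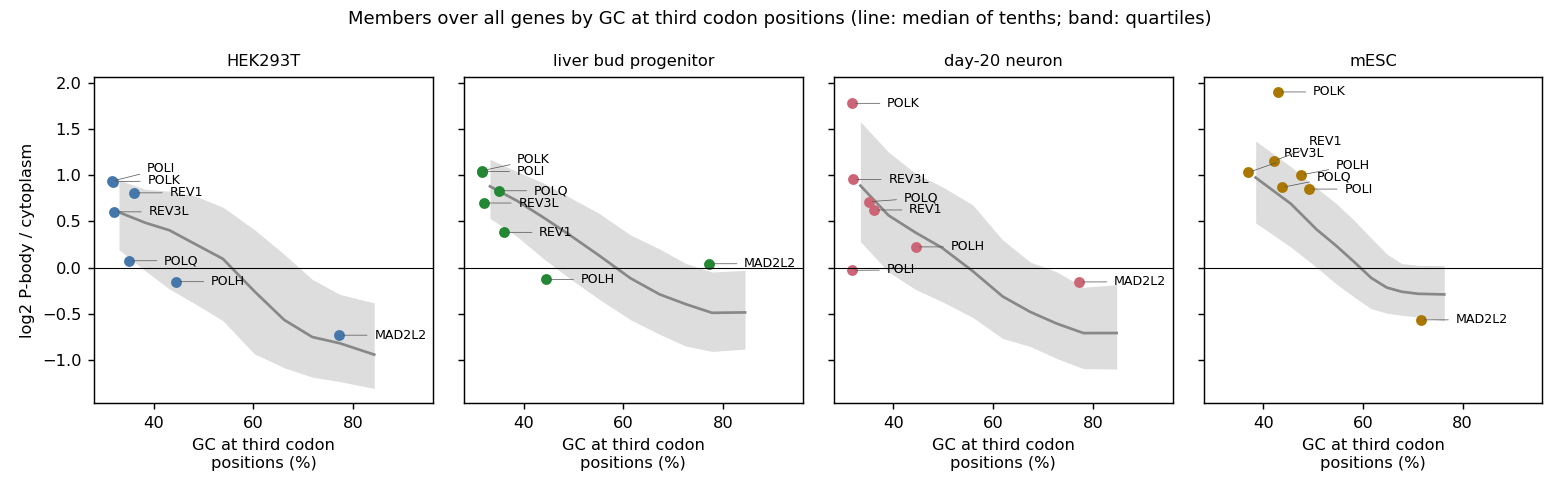
The log2 ratio of P-body to cytoplasm against GC3 (G or C at the third codon position, percent), with the median (line) and quartiles (band) of 10 equal bins of all genes averaging 1 CPM or more and the 7 members as points. MAD2L2 sits alone at high GC content, while POLK in neurons and mESC lies above the band.

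The members' profiles over the 12 human libraries were compared with those of 11048 genes averaging 5 CPM or more, by Pearson's r of log2 CPM, as a description of libraries that share cell types and fractions. The nearest to POLK were CWC22 (0.997) and ZNF195 (0.995), to REV3L COIL (0.998) and KIFBP (0.995), and to POLQ TBC1D31 (0.996) and ZNF829 (0.993). Those nearest to POLI were MSANTD3-TMEFF1 (0.985) and SPECC1 (0.981), to REV1 ZSCAN21 (0.972) and ARMCX5 (0.968), to POLH RRS1 (0.956) and VPS9D1-AS1 (0.949), and to MAD2L2 TCF7 (0.917) and RBM38 (0.909). Between members, r was highest for REV1 with REV3L (0.85) and lowest for REV1 with MAD2L2 (−0.75), while REV3L with MAD2L2 gave −0.65.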

How the data were processed

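P-body and cytoplasm RNA was sequenced from 4 cell types, with 2 libraries per group. The deposited values are whole-number counts by gene symbol, made by the authors for hg38 (12 libraries) and mm10 (4 libraries). Their methods for total RNA name the nf-core RNA-seq pipeline with refGene annotation and salmon, and for Smart-seq another aligner and counter; which made the columns labelled polyA RNA, and the strand setting, are not given in the sources used here. The smallest gene total in either table was 10. The authors' tables of their own fold changes and adjusted p-values were not used.

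Counts were fitted with edgeR 4.0.16 (R 4.3.3): TMM scaling, genes with 0 counts in all compared libraries left out, quasi-likelihood tests and Benjamini-Hochberg adjustment over all genes, called at 0.05. Each cell type was fitted alone (4 libraries), and interactions and levels over the 2 cell types compared. Unless stated otherwise, CPM use the scaling of their own fit. The fits and permutations were tested on simulated data. Ratios used counts plus 0.5 and exact permutation of fractions within cell types (scipy 1.17.1). No label says that replicates were separate cultures, although the paper reports at least 2 biological replicates for its sequencing assays. The p-values measure the spread between these libraries, and the labels do not say how much of it is technical. The edgeR intervals rest on that same spread, and the limit of 3 counts covers counting error only. For its tests and intervals edgeR draws the variance of each gene toward that of other genes. They therefore do not rest on that gene's own 2 libraries per group alone. Chi-square tests found replicates to differ beyond sampling noise.

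The members and gene lists were chosen with earlier results of these data known. All 7 members are named; of other lists, genes called in the same direction in all 4 cell types and, per cell type, the most enriched and most depleted called gene; and for likeness the 2 genes of highest r per member, on log2 CPM with a prior count of 2. Alternatives were DESeq2 1.42.0, other scalings and filters, a replicate block, a fit of all 12 human libraries and leaving out each library. Gene locations, lengths and sequences came from GENCODE 44 and M21, since the authors' refGene annotation was not used here; coding sequences were those of the canonical or principal transcript.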

Additional observations from a re-analysis of the deposited data

Results flagged for a closer look

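Differences in P-body enrichment between human cell types that passed the interaction test (edgeR, adjusted p under 0.05) are listed here as values. From liver bud progenitors to neurons, the difference in log2 enrichment was 0.72 for POLK and −1.07 for POLI. Between neurons and HEK293T it was 0.71 for POLK and −1.11 for POLI, with the same neuron libraries in both comparisons. Between liver bud progenitors and HEK293T it was −0.65 for REV1 and 0.53 for POLQ, where RNA type and cell type cannot be told apart. The median difference over all genes was 0.23, 0.16 and −0.21 in these comparisons in turn. Groups of 2 libraries are too small for a check of single outlying libraries.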

How the results depend on the processing

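Of 693 refitted log2 changes of members (each comparison under each alternative), 650 kept both direction and side of the threshold, 23 lost the call, 19 gained one and 1 reversed. The reversal was REV3L in cytoplasm, neurons against liver bud progenitors, at −0.38 with library size alone. Scaling by library size alone moved the median log2 change over all genes by −0.13, −0.18, 0.17 and −0.40 (HEK293T, liver bud progenitor, neuron and mESC), and the enriched share of calls from 55.7 to 44.1%, 50.8 to 62.0% and 55.7 to 28.2% in the last 3 cell types. With that scaling 2 members were depleted in HEK293T, 2, 3 and 2 were more enriched in neurons than in liver bud progenitors, in neurons than in HEK293T and in liver bud progenitors than in HEK293T, 0 were less enriched in neurons than in HEK293T, 6 were lower in neuron cytoplasm and 1 was higher in neuron P-bodies. With filterByExpr those 3 interaction counts were 2, 3 and 2, and 1 member was higher in neuron P-bodies; with RLE size factors the liver bud progenitor count against HEK293T was 2. With DESeq2, 0 members were depleted in mESC. Leaving out single libraries gave ranges of 2 to 4 members enriched in neurons, 0 to 1 depleted in mESC, 0 to 2 more and 0 to 1 less enriched in neurons than in HEK293T, and 0 to 2 more and 1 to 2 less enriched in liver bud progenitors than in HEK293T; a lone library was assumed to vary like the others. The causes were not tested.

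Same-numbered libraries did not deviate together (correlations of −0.01, −0.01, −0.02 and 0.06 in the same order), and the replicate numbers were not taken as pairs in the main fits. The paper describes the cytoplasm aliquots as corresponding to the sorted P-bodies, so the fractions may be matched by lysate. The correlations cannot exclude such matching. With a replicate block, the mean log2 differences of the ratios stayed at 1.17 for REV3L to MAD2L2, 1.18 for POLK to POLH (exact permutation p = 0.00781 for both, the smallest it allows) and 0.46 for POLI to POLH (exact permutation p = 0.125). The block removed the call of lower POLH in neuron cytoplasm (adjusted p = 0.0512) and changed no other member's call. All 112 levels per length moved by more than the SD with another length. With 2 libraries per group, a test that did not pass does not exclude the sizes within its interval.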
